A study of Homo sapiens with 4 samples.

Results

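Of the 9900 m6A regions deposited for wild-type H1 human embryonic stem cells, 255 (2.58%, 95% interval 2.27 to 2.91) were labelled intergenic at their centre by HOMER and were centred on no annotated repeat. They were chosen by the HOMER annotation of the set: the feature at the centre of the region was intergenic, and its detailed label was not the name, class and family of a repeat. The detailed label of 239 was plain intergenic sequence, and that of the other 16 was a CpG island. They made up 19.4% of the 1315 intergenic regions (17.3 to 21.6), and the remaining 1060, centred on a repeat, are the closest comparison. Intervals are exact binomial (Clopper-Pearson) and cover counting error only. No difference between classes of region was tested, since the deposit is 1 set of positions without values for each library.

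The 4 libraries were 2 m6A antibody pull-downs and 2 inputs of total RNA, all from H1, an established human embryonic stem cell line of WT genotype, with no other allele or agent named. The labels did not say whether the replicates were separate cultures. The files held neither RNA levels nor depths, so the cell type could not be checked against its markers and no region could be ranked by strength.

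N6-methyladenosine (m6A) is the most common internal mark of messenger RNA. It is written while RNA is made, by a complex built around METTL3 and METTL14, mostly at adenosines within short motifs such as GGACU, and it is read by proteins of the YTH and IGF2BP families that alter the fate of the transcript. In messenger RNA the mark gathers near stop codons and in long exons. Transcripts from outside annotated genes can carry it too: long non-coding RNAs, RNAs divergent from promoters, enhancer RNAs and read-through past gene ends.

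Sequence could be shown only for members that held a start site or a microRNA of the RefSeq tables. These windows run from 250 bases before to 50 bases after an annotated start, and 6 of them lay wholly inside a member of at most 5 kb. All 6 are given here because each places an annotated start inside a region labelled intergenic. They are RefSeq sequence of GRCh38.p14, printed 5′ to 3′ on the strand of the gene. Capitals mark GGACT, the DNA form of a common m6A motif. The windows are chr12:132441586-132441885 (plus strand) for the long non-coding RNA LOC112268102, chr17:62477561-62477860 (plus) for the kinase gene TLK2, chr2:127885907-127886206 (minus) for AMMECR1L, chr3:14811365-14811664 (minus) for the non-coding RNA LINC02011, chr2:3483204-3483503 (minus) for the antisense RNA TRAPPC12-AS1 and chr2:127886868-127887167 (plus) for LOC107985944, which shares its member with AMMECR1L.
LOC112268102: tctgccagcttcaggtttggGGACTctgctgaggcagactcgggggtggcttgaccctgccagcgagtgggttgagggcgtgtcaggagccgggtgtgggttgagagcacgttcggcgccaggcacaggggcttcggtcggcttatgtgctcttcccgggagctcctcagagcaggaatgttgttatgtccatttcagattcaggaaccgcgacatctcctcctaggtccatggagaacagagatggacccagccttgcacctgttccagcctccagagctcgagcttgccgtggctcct
TLK2: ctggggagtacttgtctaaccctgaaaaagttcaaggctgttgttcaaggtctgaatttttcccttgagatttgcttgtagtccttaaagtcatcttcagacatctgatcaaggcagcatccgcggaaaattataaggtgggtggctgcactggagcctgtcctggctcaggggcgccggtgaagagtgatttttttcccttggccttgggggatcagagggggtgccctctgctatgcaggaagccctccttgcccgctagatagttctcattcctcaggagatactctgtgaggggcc
AMMECR1L: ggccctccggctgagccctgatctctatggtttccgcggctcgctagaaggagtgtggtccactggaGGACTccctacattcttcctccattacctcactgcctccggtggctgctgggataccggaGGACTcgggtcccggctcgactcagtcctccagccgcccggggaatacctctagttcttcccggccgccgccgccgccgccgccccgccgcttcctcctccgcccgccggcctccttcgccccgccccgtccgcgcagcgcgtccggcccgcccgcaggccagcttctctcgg
LINC02011: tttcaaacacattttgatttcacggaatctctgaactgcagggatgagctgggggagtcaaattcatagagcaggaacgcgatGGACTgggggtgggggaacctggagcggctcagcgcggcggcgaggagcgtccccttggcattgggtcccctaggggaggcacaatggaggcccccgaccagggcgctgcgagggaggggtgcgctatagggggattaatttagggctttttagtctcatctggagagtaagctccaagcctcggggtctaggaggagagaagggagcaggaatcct
TRAPPC12-AS1: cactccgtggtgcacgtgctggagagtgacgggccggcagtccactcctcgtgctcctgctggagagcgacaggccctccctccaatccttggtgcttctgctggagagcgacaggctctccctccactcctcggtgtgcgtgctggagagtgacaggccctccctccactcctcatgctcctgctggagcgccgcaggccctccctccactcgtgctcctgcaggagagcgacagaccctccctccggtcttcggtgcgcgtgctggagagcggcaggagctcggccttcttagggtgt
LOC107985944: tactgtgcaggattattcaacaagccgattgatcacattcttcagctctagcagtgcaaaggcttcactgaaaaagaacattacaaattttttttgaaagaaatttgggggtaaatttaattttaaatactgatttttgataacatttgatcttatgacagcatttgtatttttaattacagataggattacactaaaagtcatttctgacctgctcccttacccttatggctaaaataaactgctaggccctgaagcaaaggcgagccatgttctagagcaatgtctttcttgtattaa
GGACT stood on the printed strand in 3 of the 6: at 2 places in the AMMECR1L window and at 1 each in those of LOC112268102 and LINC02011. The windows of TLK2 and TRAPPC12-AS1 held only its reverse complement AGTCC, and that of LOC107985944 held neither. Over all 51 windows wholly inside members, of which 6 were in members of at most 5 kb, 20 (39.2%, 25.8 to 53.9) had GGACT on the printed strand, against 25.3% of all 35116 windows in the table. Counting either strand, the shares were 58.8% (44.2 to 72.4) inside members and 44.2% over all windows. The 51 windows came from 46 genes, and some overlap, such as those of LOC105371225, which hold the same GGACT. The intervals treat windows as independent, so no difference from all windows can be read from them. A match is a description of the letters in the window, and the region holding it was far wider than a motif.

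No microRNA hairpin of the table lay in a narrow member. The 7 microRNA hairpins that members did contain were in 6 members of 90449 bp or more, and their mature RNAs are shown with the seed (bases 2 to 8) in capitals, from RefSeq, GRCh38.p14.
hsa-miR-3675-3p: cAUCUCUAaggaacucccccaa
hsa-miR-3675-5p: uAUGGGGCuucuguagagauuuc
hsa-miR-5087: gGGUUUGUagcuuugcuggcaug
hsa-miR-3180: uGGGGCGGagcuuccggag
hsa-miR-3670: aGAGCUCAcagcuguccuucucua
hsa-miR-3179: aGAAGGGGugaaauuuaaacgu
hsa-miR-4784: uGAGGAGAugcugggacuga
hsa-miR-8069: gGAUGGUUgggggcggucggcgu
No seed was shared by any pair of these RNAs. GGACU was found in 1 of the 7 hairpins, that of MIR4784, against 138 of 1562 hairpins of the table (8.83%).

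Most members were compact, with a small group of very broad ones. Their median width was 1208 bp (95% interval 1179 to 1279, quartiles 979 and 1956), against 1331.5 bp for intergenic regions at repeats and 1576 bp for regions not called intergenic. A width of up to 2 kb was found for 193 members (75.7%), against 70.8% of regions at repeats and 61.4% of regions not called intergenic. Widths of more than 2 and up to 5 kb were held by 15 members (5.88%, 3.33 to 9.52), against 213 regions at repeats (20.1%). Members over 5 kb numbered 47 (18.4%, 13.9 to 23.7), against 97 regions at repeats (9.15%, 7.48 to 11.0) and 1378 regions not called intergenic (16.1%, 15.3 to 16.8).

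**Figure D1:**
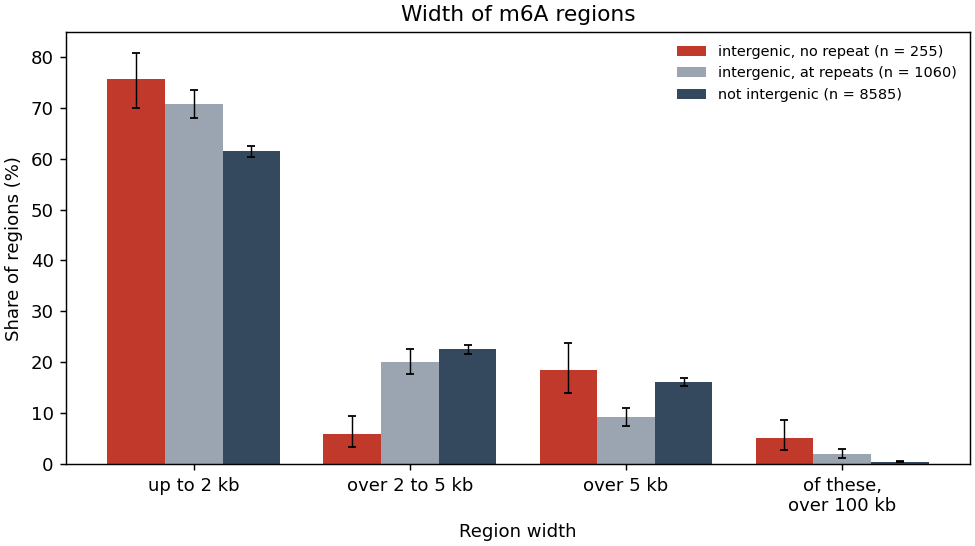
Share of regions (%) in each width class for the 255 intergenic members without repeats, the 1060 intergenic regions at repeats and the 8585 regions not called intergenic; bars over 100 kb are also counted in the bars over 5 kb, and error lines are exact 95% binomial intervals. Members show the lowest bar over 2 to 5 kb (5.88%) and the highest over 100 kb (5.10%).

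The 13 members over 100 kb (5.10%) held 3.57 of the 4.69 Mb that members covered, or 76.1%. Regions of this width made up 1.98% of those at repeats and 0.454% of those not called intergenic. The 13 met 208 RefSeq genes, among them 63 protein-coding genes, 92 pseudogenes and 35 long non-coding RNAs. For these, the label intergenic describes the centre only. The widest, 811647 bp on chromosome 8 with FAM90A7 as the nearest start, met 72 genes, 42 of them protein-coding, including the antimicrobial beta-defensin genes and multicopy FAM90A and USP17L genes. The next was 462068 bp on chromosome 7, near POMZP3, and met DTX2, UPK3B, SPDYE16 and POMZP3. On chromosome 2, a member of 396627 bp near the tubulin gene TUBA3E met 35 genes, 24 of them pseudogenes, and a member of 298920 bp near NOC2LP2 met 33 genes, 26 of them pseudogenes. That second stretch holds TUBA3D, CCDC74A and MZT2A, the paralogues of TUBA3E, CCDC74B and MZT2B in the first.

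Of the 13, 6 met no protein-coding gene. The member of 254513 bp on chromosome 6, nearest to TSG1, met no gene of the table, and that of 266306 bp near LINC01854 on chromosome 2 met 4. The member of 321081 bp on chromosome 21, near LOC110091777, met 8 genes, 5 of them pseudogenes, and that of 149264 bp on chromosome 1, near MIR3675, met 13, 7 of them pseudogenes. The treatment of reads that match several places was not stated in the sources used, and their part in these broad members was not tested.

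Members lay closer to the start sites listed by HOMER than intergenic regions at repeats did. The median distance between the centre and the nearest annotated start was 27033 bp (21217 to 34743), against 62263.5 bp (53634 to 68997) for regions at repeats. A start within 10 kb was found for 69 members (27.1%), against 13.5% of regions at repeats, and a distance over 100 kb for 43 members (16.9%), against 38.1%. The centre was upstream of that start in 161 members (63.1%), against 60.4% of regions at repeats. Sequence just downstream of a start belongs to the gene, which HOMER does not label intergenic, so the rule that chose the members sets the side near starts.

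**Figure D2:**
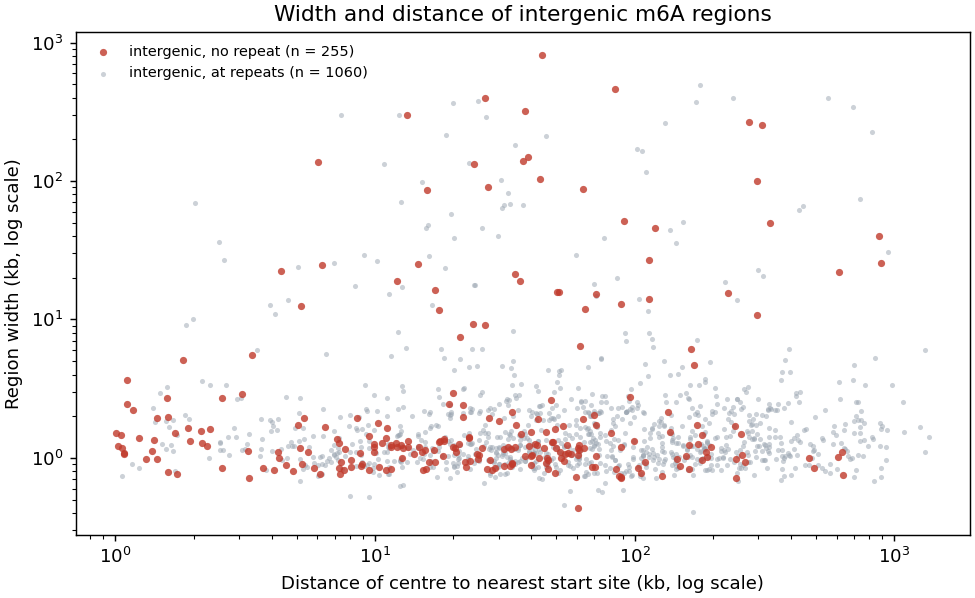
Region width (kb, log scale) against the distance of the centre to the nearest start site (kb, log scale); each point is 1 region, red for the 255 members and grey for the 1060 intergenic regions at repeats. Most members form a band near 1 kb in width at every distance, and the 47 members over 5 kb lie above it.

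Just upstream of starts, 22 members (8.63%, 5.49 to 12.8) had their centre within 2 kb, against 17 regions at repeats (1.60%, 0.937 to 2.56). The distance at which HOMER ends a promoter sets the inner limit: the nearest members lay at -1008 bp (PIK3R5) and -1027 bp (SEPTIN11), and the farthest region called promoter at -993 bp (LOC100130283). Of the 22, 20 (90.9%) were nearest to a protein-coding gene, against 57.6% of all members. A long non-coding RNA of RefSeq held the centre of 8 (36.4%), against 25.5%, and a protein-coding gene body that of 6 (27.3%), against 15.7%. In 10 of the 22 (45.5%, 24.4 to 67.8) the nearest gene held another m6A region in its body. That share was 35.4% over 254 members and 48.3% over those with a protein-coding neighbour.

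The 8 members closest to a start were upstream of it, the side the rule allows. After PIK3R5, a regulatory subunit of phosphoinositide 3-kinase gamma, and the septin gene SEPTIN11 came CDPF1 at -1051 bp, the zinc finger gene ZNF496 at -1061 bp, the splicing factor gene PUF60 at -1081 bp, the nucleoside diphosphatase gene ENTPD4 at -1082 bp, LINC02011 at -1109 bp and AMMECR1L at -1113 bp. The farthest members were 888177 bp downstream of MIR5007 and 871101 bp downstream of the ephrin receptor gene EPHA3, 25395 and 40293 bp wide. RefSeq gene bodies lay nearer to their centres, at 62180 bp (HNF4GP1) and 51563 bp (LOC124906381). The next farthest member, at -633964 bp, lay upstream of the listed start of CNTNAP2, a neurexin-like adhesion gene, and yet within the longer body that RefSeq gives this gene.

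Set against RefSeq gene bodies, 133 members (52.2%, 45.8 to 58.4) were centred inside a gene, against 362 of the 1060 regions at repeats (34.2%). Any base in a gene body was found for 158 members (62.0%), at least 50% of the region for 135, and no base for 97. RefSeq here is a second annotation beside the one HOMER used. Long non-coding RNAs held 65 member centres (25.5%, 20.3 to 31.3), protein-coding genes 40 (15.7%, 11.5 to 20.7) and pseudogenes 41 (16.1%, 11.8 to 21.2); a centre can lie in more than 1 gene. At repeats the shares were 21.2% for long non-coding RNAs, 11.7% for protein-coding genes and 1.89% (1.16 to 2.90) for pseudogenes. The rule itself leaves out centres in repeats, which bears on this last contrast. In regions not called intergenic, 281 of 8585 centres (3.27%) were in a pseudogene.

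**Figure D3:**
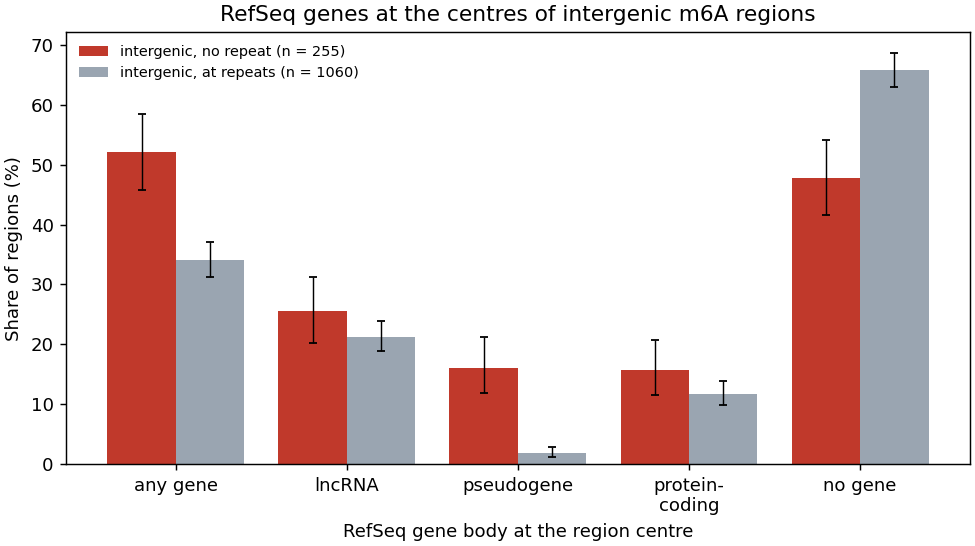
Share of intergenic regions (%) whose centre lies in a RefSeq gene body of each kind, for the 255 members (red) and the 1060 regions at repeats (grey); error lines are exact 95% binomial intervals, and a region can count for several kinds. The pseudogene bars are 16.1% for members and 1.89% at repeats.

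Pseudogenes are copies of genes that have lost their coding function, and processed ones are DNA copies of spliced messenger RNA. The 41 members centred in one met 43 pseudogenes, 39 of them annotated as pseudogene and 4 as transcribed pseudogene. The median pseudogene was 2069 bp long and the median region there 1175 bp wide. The median share of a pseudogene covered was 53.1%. Among members up to 2 kb wide, 36 of 193 were centred in a pseudogene, and among those over 5 kb, 1 of 47.

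The pseudogenes named here were chosen after their values were seen. RPS2P40, a copy of the ribosomal protein gene RPS2, was covered over 94.2% of its 938 bp by a member of 1112 bp on chromosome 11. RPS4XP16, a copy of RPS4X, was covered over 93.7% of its 876 bp by a member of 821 bp on chromosome 13. GAPDHP21, a copy of the glycolytic gene GAPDH, was covered over 68.9% by a member of 884 bp. HNRNPA1P21 and HNRNPA1P66, both copies of the splicing regulator HNRNPA1, were covered over 72.7% and 59.0%.

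DUSP8P1 and DUSP8P5, copies of the phosphatase gene DUSP8, lay under CpG-labelled members on chromosome 10 and were covered over 34.8% and 43.4%. NEK2P4, a copy of a mitotic kinase gene, was covered over 76.7%, RBM17P4, a copy of a splicing factor gene, over 78.9%, and MEIS3P2, a copy of a homeobox gene, over 87.0%. The narrowest member of all, 435 bp on chromosome X, lay in BRAFP1, a copy of the kinase gene BRAF. SNX18P7 and ZNF731P were wholly inside their members. Some of the named members were also centred in a longer gene: HNRNPA1P66 in WDPCP, DUSP8P1 in ANXA8, RBM17P4 in DPH6 and BRAFP1 in LOC107985664. Of the 255 members, 30 (11.8%) were centred in a pseudogene and in no long non-coding RNA or protein-coding gene.

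A parent gene could be named from the symbol for 24 distinct parents. Of these, 4 (16.7%, 4.74 to 37.4) held an exonic m6A region of their own: DUSP8, RBM17, TMEM231 and THAP5. Over all pseudogenes of the table with a named parent, 257 of 2259 parents (11.4%) did. GAPDH, RPS2, RPS4X and HNRNPA1 held no exonic region. A region counts as exonic where HOMER labelled its centre as exon, untranslated region or non-coding transcript. Regions in a parent gene with other labels at the centre were not counted. Reads from a parent message can match its pseudogene copies, and whether the signal came from parent or copy was not tested.

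Long non-coding RNAs formed the largest kind of host: 61 of them held a member centre, with a median body of 21.2 kb, and 44 of the 61 held no region other than members. A second member was found in 6 of the 61. HOMER placed these centres outside genes, and the kinds of region in a body follow its labels, which bears on the count of 44. Hosts of regions at repeats were not counted in this way. LOC101928923 on chromosome 6, singled out because it held the most, had 4 members and 4 intergenic regions at repeats in a body of 487.5 kb, and no other region. The members were 1030, 826, 1094 and 2142 bp wide. All 8 regions lay in the part of the body with higher coordinates, between 265.2 and 436.9 kb along it. The strand of this gene was not given in the tables used.

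**Figure D4:**
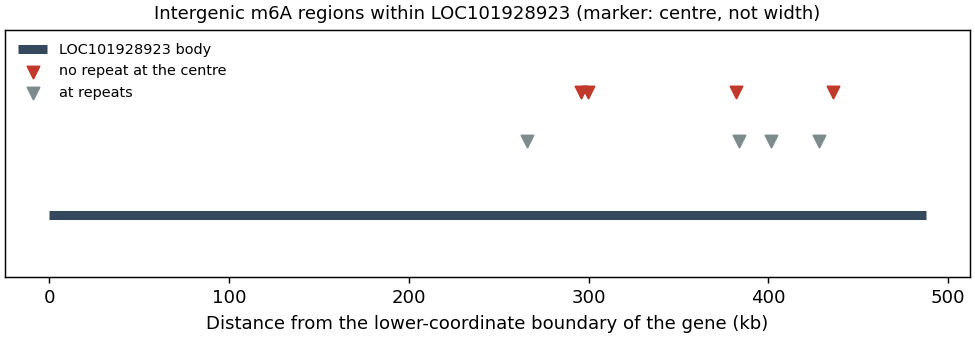
Map of the 487.5 kb body of LOC101928923 (dark bar) with the centres of its 4 members (red) and 4 intergenic regions at repeats (grey), in kb from the lower-coordinate boundary. No region lies in the first 265.2 kb.

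Divergent transcripts, non-coding RNAs that start beside a promoter and run the other way, are named in RefSeq with the ending -DT. Members centred in one numbered 8 (3.14%), against 15 of the regions at repeats (1.42%). They were ZNF496-DT, MAP3K9-DT, PIK3R5-DT, FHIP1A-DT and PPP1R3B-DT with 1 member each and ENTPD4-DT with 3. The ENTPD4-DT members, 1091, 860 and 979 bp wide, were also the longest run of neighbouring members. In PIK3R5-DT and ZNF496-DT the member centre was 0.873 kb from the 5′ boundary of the divergent RNA.

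Protein-coding bodies of RefSeq held 41 pairs of member and gene, with 39 genes. Strand was known for 37 pairs, of which 12 were centred within the first 10% of the body and 6 within the last 10%. A centre labelled intergenic can lie in such a body only where RefSeq and the HOMER annotation differ. The rule that chose the members thus bears on these places, and regions at repeats were not placed in this way. In 13 of the 41 pairs the member was upstream of the start that HOMER listed for the same gene. NAV3, a microtubule-associated gene, had a member of 1049 bp at 0.603 kb from its RefSeq 5′ boundary, at -258428 bp from the listed start. TLN2, the gene of the adhesion protein talin 2, had a member of 1305 bp at 1.13 kb, TUBGCP3, a gene of the gamma-tubulin complex, 1 of 1136 bp at 1.84 kb, and GSE1 1 of 2149 bp at 1.25 kb. LIN28B, an RNA-binding protein that blocks the maturation of let-7 microRNAs and is made in embryonic stem cells, had a member of 1505 bp at 5.20 kb of its 146.3 kb body, at -1699 bp to the start of LIN28B-AS1.

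Late in the body, TET3, a dioxygenase that oxidises methylated cytosine in DNA, had a member of 833 bp at 90.4% of its length, where the pseudogene FNBP1P1 also lies. The adhesion gene TENM3 had 2 members, of 877 and 819 bp, at 39.3% and 53.5% of its 1355 kb body. ROBO2, a receptor for the guidance cue Slit, had 1 of 1013 bp at 30.3% of its 1743 kb body, where CAP1P1 also lies. The gene bodies were long, with a median of 151.5 kb over the 39 protein-coding genes.

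**Figure D5:**
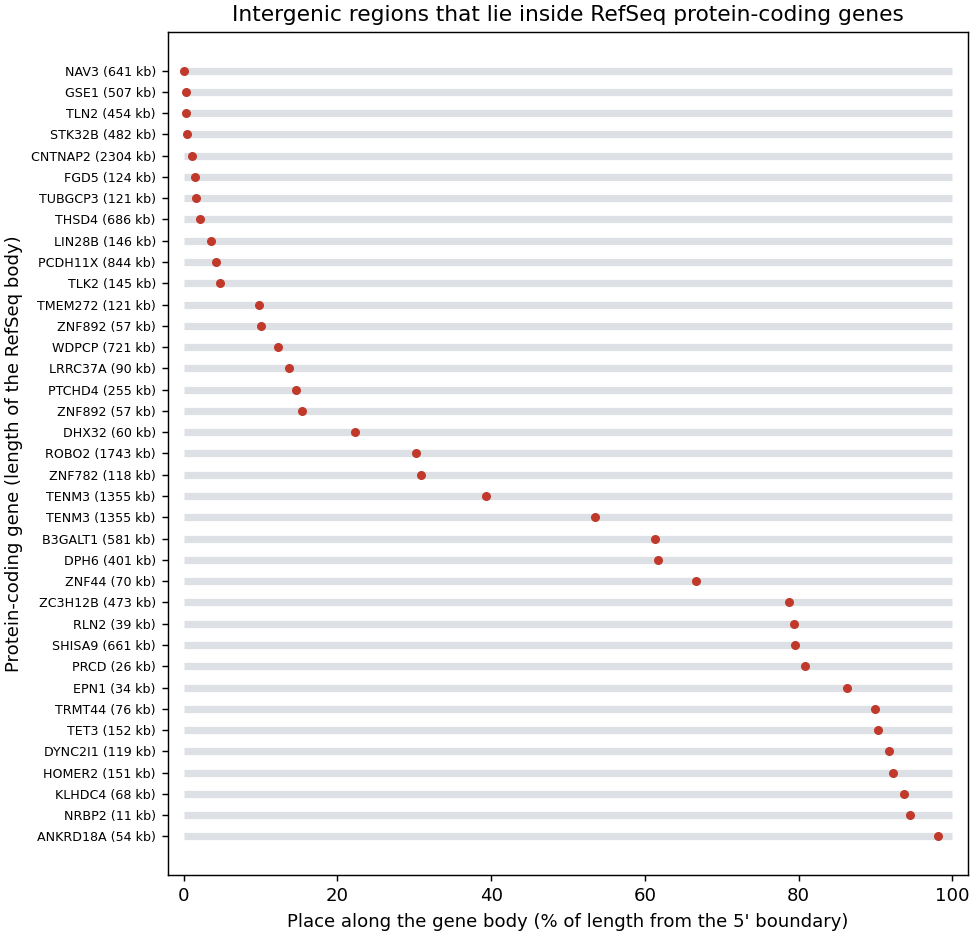
Place of each member centre along its RefSeq protein-coding gene (percent of the body from the 5′ boundary), for the 37 pairs of member and gene with a known strand; each row is 1 pair, with the gene length in kb. Of the points, 12 fall in the first 10% of the body and 6 in the last 10%. The rule that chose the members bears on these places.

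The other 122 members were centred outside every RefSeq gene body, at a median of 7558.5 bp from the nearest one, against 14135 bp for 698 such regions at repeats. Of the 122, 41 (33.6%) lay past the 3′ end of the nearest gene, 33 (27.0%) before its start, and 48 beside a gene whose strand was not known. With protein-coding genes alone, where 183 members were centred outside a body beside a gene of known strand, the split turned: 73 (39.9%) lay past the 3′ end. Past a 3′ end and within 10 kb of it were 20 (16.4%), against 16.5% at repeats, and before a start within 10 kb were 22 (18.0%, 11.7 to 26.0), against 9.74% (7.64 to 12.2) at repeats. The members nearest past a 3′ end lay 776 bp beyond NME6, a nucleoside diphosphate kinase gene, 1245 bp beyond the histone gene H4C11, 1494 bp beyond LINC02570, 2020 bp beyond LINC01310, 2158 bp beyond LOC101930496, 2563 bp beyond RBM33-DT and 2671 bp beyond the dehydrogenase gene D2HGDH. Another lay 1167 bp beyond GS1-24F4.2.

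The nearest start belonged to a protein-coding gene for 147 members (57.6%, 51.3 to 63.8), a non-coding RNA for 76 (29.8%), a pseudogene for 28 (11.0%, 7.42 to 15.5), a snoRNA for 3 and an snRNA for 1. By the nearest RefSeq gene body in place of the nearest start, the gene was protein-coding for 83 members (32.5%). At repeats the shares were 61.7% for protein-coding genes and 5.47% for pseudogenes. The gene of the nearest start held another m6A region in its body for 90 of the 254 members whose nearest gene the table places on the same chromosome (35.4%, 29.6 to 41.7), against 35.6% of regions at repeats, and an exonic one for 43 (16.9%), against 15.8%. RefSeq placed the body of that gene within 10 kb of the listed start for 247 members, of which 89 (36.0%) had another region in it. For protein-coding neighbours alone the count was 71 of 147 (48.3%, 40.0 to 56.7), against 45.3% at repeats. Of all 20037 protein-coding genes, 30.2% held a region.

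Of the 20037 protein-coding genes of RefSeq, 136 (0.679%) were the nearest start of a member, and of 18303 long non-coding RNA genes 48 (0.262%) were. The starts were those listed by HOMER, whereas the totals are all RefSeq genes. In all 70 pairs of a member and a long non-coding RNA holding its centre, the nearest start was that of another gene. HOMER did not list every counted gene at its RefSeq start. The start of LOC112268102 lay 0.102 kb from a member centre whose nearest listed start was FBRSL1, at -48213 bp. The value of 0.262% may therefore be too low a base for the non-coding lists. Of 35 pluripotency genes and of 28 genes of the m6A machinery, 0 were the nearest start of a member, and likewise 0 of 42 genes of histone lysine methylation. By nearest gene body, LIN28B of the pluripotency list was hit, and the listed genes hit numbered 25 in all, against 59 by nearest start. Of 22 germ cell genes, TFAP2C was the only one (4.55%). Its product is a transcription factor of early human germ cells, and it is named in the title of the study. The TFAP2C member, chr20:56625164-56626008, was 845 bp wide, was labelled a CpG island, and was centred at -3720 bp to the start, with a gap of 3297 bp between its edge and the gene. It met no RefSeq gene, and the next m6A region was 125746 bp away.

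Of 25 long non-coding RNAs known from embryonic stem cells, MIAT was the nearest start of a member, which was centred at -12726 bp in the pseudogene ISCA2P1. The RefSeq body of MIAT begins nearer, 1674 bp past that centre. By nearest gene body, the gene of this list was DANCR, beside another member. Genes named ZNF, mostly zinc finger transcription factors, were the nearest start for 8 of 702 symbols (1.14%) and 10 members. These were ZNF496, ZNF586, ZNF546, ZNF12, ZNF2, ZNF44, ZNF281 and ZNF322. The members by ZNF12 and ZNF2 came in pairs. The 702 symbols also take in pseudogenes and divergent RNAs, such as ZNF731P and ZNF496-DT. ONECUT1, a homeobox gene, was the 1 hit among 235 homeobox symbols, with a member centred at -10609 bp in LOC101928499. Those 235 take in pseudogenes too, such as MEIS3P2. Of 2317 LINC symbols, 25 (1.08%) were the nearest start of a member, of 2000 microRNA symbols 21 (1.05%), and of 573 snoRNA symbols 2 (0.349%). Counted by region, a microRNA start was nearest for 22 members (8.63%), against 6.32% of regions at repeats and 4.77% of all regions. A snoRNA start was nearest for 3 members (1.18%), against 0.472% at repeats and 0.828% of all regions.

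Members were spread over 23 chromosomes, with 27 on chromosome 2, 22 on chromosome 1 and 18 on chromosome 3. On these chromosomes their share of the intergenic regions ran between 8.40% on X and 42.9% on 17 and 21. The next m6A region was at a median gap of 23616 bp, against 27134 bp for regions at repeats, and lay within 50 kb for 163 members (63.9%), against 62.6%. With gaps of up to 50 kb between members, 37 members (14.5%) fell into 18 runs, 17 of them pairs. Among the tightest pairs were those at ZNF12, 849 bp apart, at LOC112268102, 1332 bp apart, and at ZNF892 beside ZNF2, 1830 bp apart. The LOC112268102 pair, 1308 and 924 bp wide, included at its first member the start whose window is printed and had centres at -48213 and -45765 bp to the start of FBRSL1.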

How the data were processed

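The authors deposited 1 set of region start and end positions and a HOMER annotation of it, with signed distances to start sites, all in base pairs on hg38 per the file headers and the submitters' processing notes. These notes name HOMER, MACS2 2.2.7.1, HISAT2 2.2.1, bedtools 2.30.0, Trim Galore 0.6.7 and SAMtools 1.6, without settings. The set is named an intersection, of what the sources used do not say. The deposited peak score was 0 in every line and was not used.

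Widths, gaps and overlaps were computed in Python 3.11.15 with pandas 2.3.3, NumPy 2.4.6 and SciPy 1.17.1, and the functions were tested on simulated data. Gene bodies, promoter windows and microRNAs came from RefSeq tables of GRCh38.p14, and the gene of the nearest start was matched there by gene ID for all 255 members. For 247 the table placed its body within 10 kb of the listed start; for the others it lay elsewhere. Strand came from the promoter table or from the deposited distances, which gave the same strand for 3091 of 3091 genes with both. Parents of pseudogenes were read from symbols.

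The members and lists were chosen with earlier results of these data known. Named members were drawn from the 8 widest and the 8 nearest to and farthest from a start. The longest run and the 8 nearest past a 3′ end were also used. Listed genes beside members were drawn up to 6 a list, except that all 8 ZNF genes are given. Not every member or gene so drawn is named in the text. Pseudogenes, host genes and other pairs were chosen after their values were seen. Genome sequence of the regions was not used here.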

Additional observations from a re-analysis of the deposited data

How the results depend on the processing

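Of 24 alternatives, 13 stayed within the interval of the reported value (for counts, within 1.5 times) and 11 did not. Keeping members with no base in a gene body left 97 regions of 255. The median width was 1476 bp for members of at least 1 kb. The median distance to a start was 19714 bp with the start sites of the gene table and 39847 bp with those of its protein-coding genes. Regions at repeats were not measured against these starts, so the contrast with them rests on the starts listed by HOMER. Among members beside a gene of known strand, 41 of 74 (55.4%) lay past its 3′ end, and 39.9% did with protein-coding genes alone. Asking for at least 50% of a region inside gene bodies gave 52.9%, against 62.0% for any base. The nearest gene was protein-coding for 32.5% by gene body edge. With exonic regions alone, 16.9% of nearest genes held another region. By body edge 25 listed genes were nearest to a member, in place of 59. The alternatives for pseudogenes were chosen after seeing the data: 23.5% of whole members met one, and 11.8% were centred in a pseudogene and in no other gene. Leaving out nearest genes that the table places over 10 kb from the listed start, also chosen after seeing the data, gave 36.0% with another region, against 35.4%. Among members up to 2 kb, 18.7% were centred in a pseudogene and 55.4% in any gene. No paired analysis was possible because the deposit is 1 intersected set without columns for each library, and for the same reason no library could be left out. Depth is unknown, so precision rests on the number of regions.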

Other observations

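The 16 members labelled as CpG islands had a median width of 1272.5 bp (838 to 11672 bp), and 15 were at most 2 kb wide. Their centres lay in a RefSeq gene for 8, in a protein-coding body for 5 and in a pseudogene for 4. Those outside genes included members near the dynein heavy chain gene DYNC1H1, at -15791 bp, the acetylcholine receptor gene CHRNA4, at -33574 bp, and INTU, a gene of cilium assembly, at -9457 bp.

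A member of 1102 bp, chr3:185637537-185638638, was centred 5043 bp past the 3′ end of IGF2BP2, an m6A reader gene, and 4536 bp past the 3′ end of the convergent gene SENP2. The next m6A region was 145789 bp away. On chromosome 15, LOC105370733, a non-coding RNA of 440.7 kb, held 2 members of 938 and 87141 bp, with PWRN2 and PWRN3 of the Prader-Willi region as their nearest starts, and no other region.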
